A study of Homo sapiens with 9 samples.

Results

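The miRNAs of the imprinted DLK1-DIO3 region on human chromosome 14 were examined in HCT116 colorectal carcinoma cells and in drug-resistant sublines of them. Members were picked by miRNA number, from a list of 49 numbers whose hairpins lie in this region, and 60 of the 1198 mature miRNAs listed in the count table belonged to it. Of these, 54 came from the miR-379/miR-656 cluster (39 of the 49 numbers, 35 of them with a count row) and 6 from the upstream group around MIR127 and MIR370 (10 numbers, 5 of them with a row). The 9 numbers without a row were miR-300, miR-337, miR-431, miR-433, miR-544a, miR-665, miR-668, miR-770 and miR-1193, which were not analysed here.

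Small RNA libraries were sequenced from 3 lines, all grown as cell culture, with 3 replicates per line and 9 libraries in all. HCT116 is an established human colorectal carcinoma line and received no selecting drug. HCT-Oxa-c is a subline of it that was made resistant to oxaliplatin, a platinum compound that cross-links DNA, and HCT-FU-c is a subline made resistant to 5-fluorouracil, an antimetabolite that inhibits thymidylate synthase. Both were obtained by continuous growth with a rising concentration of the drug, so each drug is represented by 1 subline, and an effect of the drug and a peculiarity of that subline cannot be told apart.

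Genomic imprinting silences 1 parental copy of a gene. In the DLK1-DIO3 region the protein-coding genes DLK1, RTL1 and DIO3 are active on the paternal chromosome, and the noncoding RNAs MEG3, MEG8 and MEG9 and the miRNAs on the maternal one, under the control of a methylated element between DLK1 and MEG3. The miRNA hairpins are cut from long noncoding transcripts that run through the region, and their mature products are known for high levels in brain, placenta and embryonic tissue and low levels in most adult epithelia. A mature miRNA pairs with messenger RNAs chiefly through its seed, and the arm of the hairpin that it comes from is written 5p or 3p.

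On the GRCh38 build, the GENCODE 29 annotation placed 52 hairpins of the 49 numbers on chromosome 14, all 52 on the plus strand. The 10 upstream hairpins lay between bases 100852390 and 100911213, and 5 of them (MIR431, MIR433, MIR127, MIR432 and MIR136) lay opposite RTL1, a gene on the minus strand at 100879753 to 100903722. After a gap of 110.9 kb, the 42 downstream hairpins followed between 101022066 and 101066801, a span of 44.7 kb. Of these 42, the first 13, from MIR379 to MIR495, lay in introns of MEG8, 6 lay in introns of MIR381HG, 6 lay within MEG9 (MIR410 in an exon of it), and 17 lay in no annotated long transcript. DLK1 lay upstream of all of them at 100725705 to 100738224, and DIO3 downstream at 101561351 to 101563452.

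The mature sequences of all 60 members were found in RefSeq (GRCh38.p14). The sequences of 14 members follow, in their order along the chromosome, because these were the members that differed between HCT-Oxa-c and HCT116 with an adjusted p below 0.05, with the line alone or with the replicate number as a block. Each is written 5′ to 3′, with the seed (bases 2 to 8) in capitals.
miR-379-5p: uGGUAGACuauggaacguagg
miR-411-5p: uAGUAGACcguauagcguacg
miR-323a-3p: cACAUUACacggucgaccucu
miR-329-3p: aACACACCugguuaaccucuuu
miR-494-3p: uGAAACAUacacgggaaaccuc
miR-543: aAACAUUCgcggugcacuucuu
miR-376c-3p: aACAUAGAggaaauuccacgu
miR-376a-3p: aUCAUAGAggaaaauccacgu
miR-487b-3p: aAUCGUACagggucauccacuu
miR-889-3p: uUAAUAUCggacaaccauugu
miR-382-5p: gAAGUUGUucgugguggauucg
miR-382-3p: aAUCAUUCacggacaacacuu
miR-409-3p: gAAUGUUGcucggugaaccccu
miR-369-3p: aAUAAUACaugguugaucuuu

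All 14 seeds differed from one another. Those of miR-379-5p and miR-411-5p, whose hairpins are neighbours, were GGUAGAC and AGUAGAC. Across the 60 members, 6 seeds were shared by a pair of members. One was UCAUAGA in miR-376a-3p and miR-376b-3p, and another was AUCAUAC in miR-154-3p and miR-487a-3p. Of the 14 printed seeds, only ACACACC of miR-329-3p was also found in a listed miRNA from outside the region, miR-362-3p. That miRNA averaged 28.3 ± 20.1 CPM (SD, n = 3) over the HCT116 libraries against 17.2 ± 13.1 CPM over those of HCT-Oxa-c, and it did not pass the test (log2 fold change -0.71, SE 0.76, edgeR adjusted p = 0.933). A few members are hard to tell apart by their reads, since 5 pairs of mature sequences had at most 2 mismatches. Among them were miR-376a-3p with miR-376b-3p, miR-376a-3p with miR-376c-3p, and miR-323a-3p with miR-323b-3p. Mature miR-329-3p, miR-376a-3p and miR-1185-5p each come from 2 hairpins, whose shares cannot be separated.

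Total counts ranged from 856383 to 2207538 per library, and at these depths 3 counts corresponded to 1.34 to 4.01 CPM (counts scaled by the library total after a TMM correction for composition). A count of 0 in a library therefore allowed a level of up to that value, and this limit covers counting error only. The libraries of replicate 3 stood apart in all 3 lines. They held 70 to 246 counts of the erythrocyte miRNA miR-451a and 20 to 45 of the liver miRNA miR-122-5p, where the other 6 libraries held 0 to 2 and 0 to 7. They were also the shallowest of each line. A list of 8 epithelial miRNAs summed to between 19517 and 26030 CPM over the HCT116 libraries, and none of its 7 tested members passed the test in either subline against HCT116.

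The summed level of the miR-379/miR-656 cluster was higher in HCT-Oxa-c than in HCT116 and HCT-FU-c, and the upstream group was close to absent in every line. The 60 members together took 161, 165 and 181 counts in HCT116 replicates 1 to 3. They took 898, 1241 and 819 counts in HCT-Oxa-c, and 181, 213 and 177 counts in HCT-FU-c. Each HCT-Oxa-c library held more of them than any library of the other lines, while the HCT116 and HCT-FU-c libraries overlapped.

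In CPM, the members summed to 156 ± 74.1 for HCT116, to 622 ± 194 for HCT-Oxa-c and to 153 ± 51.5 for HCT-FU-c (mean ± SD of 3 libraries). The lowest HCT-Oxa-c library was at 471 CPM, and the highest HCT116 library, replicate 3, was at 242 CPM. The ratio of HCT-Oxa-c to HCT116 was 3.98 between the means, and 4.31, 4.71 and 3.48 for replicates 1, 2 and 3. The ratio of HCT-FU-c to HCT116 was 0.980 between the means, and 1.25, 0.950 and 0.872 by replicate. HCT-Oxa-c was thus above HCT116 within each replicate number, and HCT-FU-c lay on both sides of HCT116. These are bulk libraries, in which fewer cells with a miRNA and less of it per cell cannot be told apart.

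The upstream group was barely detected. Its 6 members took 28 counts over all 9 libraries, of which HCT116 had 6, HCT-Oxa-c 7 and HCT-FU-c 15, and 25 of the 28 lay in the replicate 3 libraries. miR-432-5p was seen in replicate 3 alone, with 2 counts in HCT116, 4 counts in HCT-Oxa-c and 7 counts in HCT-FU-c. miR-127-3p, which is cut from the strand opposite RTL1 and pairs with its messenger RNA, had 4 counts, all in HCT-FU-c replicate 3. In replicates 1 and 2 the group had 3 counts over the 6 libraries, so no difference in it was detectable at this depth. None of its members was tested.

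Both ends of the miR-379/miR-656 cluster were higher in HCT-Oxa-c by a like ratio. The 54 downstream members summed to 154 ± 69.5 CPM in HCT116, against 620 ± 191 CPM for HCT-Oxa-c and 147 ± 42.4 CPM for HCT-FU-c. Those whose hairpins lie before the midpoint of the span were at 66.0 ± 21.5 CPM in HCT116 and 264 ± 54.8 CPM in HCT-Oxa-c, a ratio of 4.01. Those after it were at 87.6 ± 48.0 and 355 ± 138 CPM, a ratio of 4.06.

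The sums were also higher in HCT-Oxa-c when hairpins were grouped by the long transcript around them. The 15 members from MEG8 introns were at 52.7 ± 11.1 CPM in HCT116 and 211 ± 39.7 CPM in HCT-Oxa-c (ratio 4.01). The 7 members from MIR381HG introns were at 24.3 ± 3.41 and 111 ± 11.3 CPM (ratio 4.56), with 98.0 CPM in the lowest HCT-Oxa-c library and 27.8 CPM in the highest HCT116 library. The 10 members within MEG9 were at 46.7 ± 37.0 and 167 ± 98.6 CPM (ratio 3.58). Of the 4 groups, this one had the largest spread, set by replicate 3, at 89.5 CPM in HCT116 and 281 CPM in HCT-Oxa-c. The 22 members from hairpins in no long transcript were at 29.9 ± 21.6 and 130 ± 48.9 CPM (ratio 4.37). In all 4 groups the lowest HCT-Oxa-c library was above the highest HCT116 library. Ratios by replicate number ran from 3.14 (MEG9, replicate 3) to 5.93 (no long transcript, replicate 2). In HCT-FU-c the 4 ratios to HCT116 ranged from 0.941 to 0.979 between the means. By replicate number they spread more widely. The lowest was 0.587 (replicate 3) and the highest 2.00 (replicate 1), both for hairpins in no long transcript.

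Counted member by member over all 60, without any filter on low counts, the mean CPM was higher in HCT-Oxa-c than in HCT116 for 50 members, lower for 5 and equal for 5. Among the 1138 other miRNAs it was higher for 38.2%. For 20 of the 60 members the 3 HCT-Oxa-c libraries were all above the 3 HCT116 libraries, and for 0 they were all below, where such non-overlap upward held for 4.01% of the 1198 listed miRNAs and downward for 4.76%. Against HCT-FU-c, the 3 HCT-Oxa-c libraries were all above for 20 members, with 5.09% over all listed miRNAs, and all below for 0, with 6.09%. In HCT-FU-c against HCT116, 30 members had a higher mean, 21 a lower and 9 an equal one. A higher mean was found there for 47.2% of the 1138 other miRNAs. Non-overlap upward held there for 1 member, miR-487a-3p, against 3.17% of all listed miRNAs, and non-overlap downward for 0 members, against 2.5%. That miRNA had 1, 0 and 0 counts in HCT116 and 1, 3 and 1 in HCT-FU-c, values at or under the floor of 3 counts.

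Most members were rare. In every library of the line, 21 members had more than 3 counts in HCT-Oxa-c, and 6 members did so in each of the other lines. At least 1 count was found for 52 members in HCT-Oxa-c, against 40 for HCT116 and 44 for HCT-FU-c, and 27 members had at most 10 counts over all 9 libraries. The 3 lines had totals of 5246113, 3694250 and 3638186 counts in the same order, so a rare member was more likely to be seen in HCT-Oxa-c.

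Differences were tested with the quasi-likelihood test of edgeR on the 367 miRNAs that passed a filter on low counts. A model with the line alone was used, and beside it a model that also held the replicate number as a block. Same-numbered libraries deviated together, but replicate 1 of a line and replicate 2 of another also did. A member was called where the Benjamini-Hochberg adjusted p over all 367 was below 0.05. The filter kept 17 members, none of them upstream. It kept 12 of the 17 only with the help of HCT-Oxa-c libraries, which favours members that are higher there. Counts over the 17 therefore describe them without adding evidence. The other 5 (miR-369-3p, miR-379-5p, miR-409-3p, miR-889-3p and miR-411-5p) reached the 7.07 CPM of the filter in at least 3 libraries of the other lines.

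For HCT-Oxa-c against HCT116, the model with the line alone called 2 of the 17 members, miR-487b-3p and miR-889-3p, both higher. Over all 367 miRNAs, 1.36% were called higher and 1.09% lower. The model with the replicate block called 14 members, all higher, with 9.54% of all tested miRNAs called higher and 5.18% lower. It did not call miR-154-3p, miR-485-3p and miR-654-3p. The erythrocyte miRNA miR-451a had 86 counts in HCT116 replicate 3 and 246 in HCT-Oxa-c replicate 3. With the block its log2 fold change was 1.04 (SE 0.44, adjusted p = 0.124, edgeR). It was not called, and its part in the result was not tested. Leaving out HCT116 replicate 2 reduced the 14 to 8, and leaving out HCT-Oxa-c replicate 2 reduced them to 9. The share over all tested miRNAs was not counted for fits with a library left out. Without a filter on low counts, 9 of the 60 members were called with the line alone and 20 with the block, all of them higher, where 1.09% and 3.34% of the 1198 miRNAs were called higher. With replicates 1 and 2 only and no block, 16 of 18 tested members were called, all higher (7.37% of the 380 tested miRNAs called higher). DESeq2 called 9 members with the line alone (4.36% of all tested miRNAs higher) and 14 with the block (9.26%). Of the 14 calls of edgeR with the block, 8 held whichever of the 9 libraries was left out, those of miR-323a-3p, miR-369-3p, miR-376a-3p, miR-379-5p, miR-382-3p, miR-409-3p, miR-487b-3p and miR-889-3p.

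Of the 5 members that needed no HCT-Oxa-c library to pass the filter, 1 was called with the line alone and 5 with the block. Their log2 fold changes lay between 1.65 and 2.19 with the line alone and between 1.75 and 2.11 with the block, with medians of 1.89 and 1.90. The median over all 367 tested miRNAs was -0.01 in both models.

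**Figure D1:**
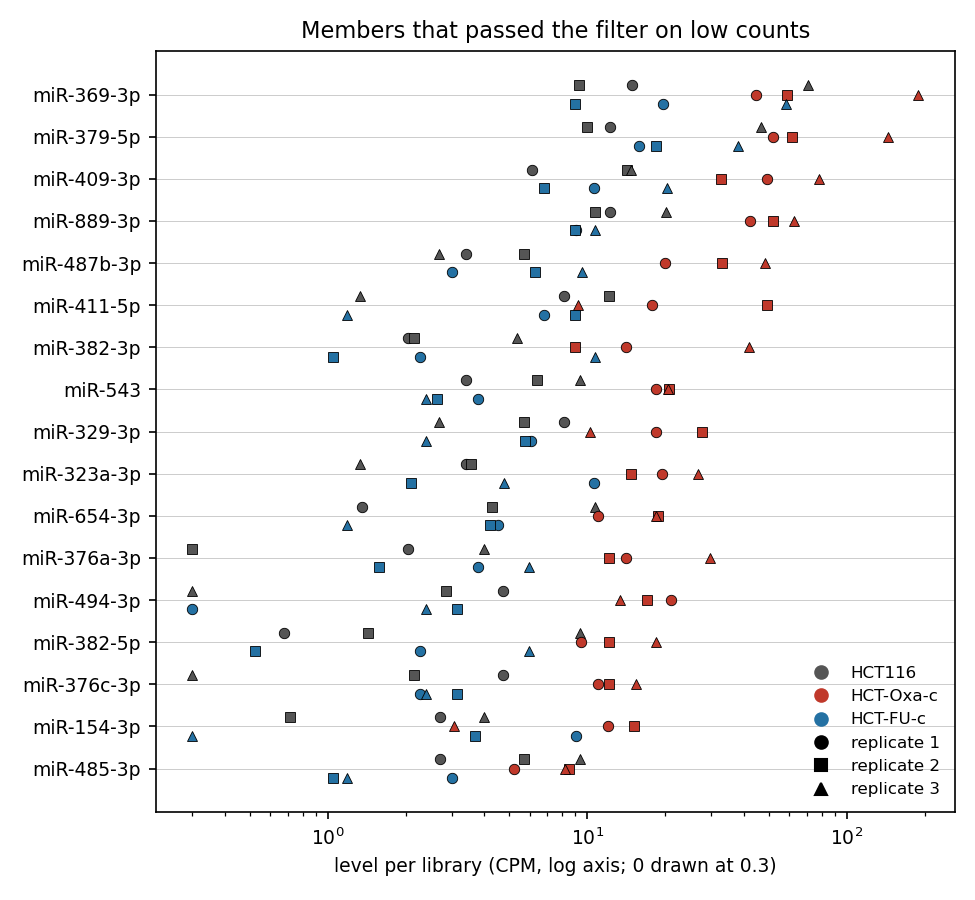
Level in CPM of each of the 17 tested members in each of the 9 libraries (horizontal log axis, with 0 drawn at 0.3), ordered by mean level, with colour for the line and symbol for the replicate number. The red HCT-Oxa-c points lie to the right in nearly all members, and for miR-369-3p and miR-411-5p a replicate 3 or replicate 2 library brings the lines into overlap.

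miR-369-3p and miR-379-5p were the most abundant members, and both had their highest level of each line in replicate 3. miR-369-3p is known for binding AU-rich elements of the TNF messenger RNA and raising its translation in arrested cells. It was at 14.9, 9.28 and 70.8 CPM in HCT116, at 44.5, 58.6 and 189 CPM in HCT-Oxa-c, and at 19.6, 8.93 and 58.4 CPM in HCT-FU-c. The lines overlapped, because HCT116 replicate 3 exceeded the first 2 HCT-Oxa-c libraries. With the line alone the log2 fold change of HCT-Oxa-c against HCT116 was 1.65 (SE 0.93, adjusted p = 0.642, edgeR), and with the block 1.83 (SE 0.30, adjusted p = 1.2e-04).

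miR-379-5p, from the first hairpin of the cluster, was at 12.2, 10.0 and 46.7 CPM in HCT116, at 51.9, 61.2 and 145 CPM in HCT-Oxa-c, and at 15.9, 18.4 and 38.1 CPM in HCT-FU-c. All HCT-Oxa-c libraries were above all others, by a small margin over HCT116 replicate 3. Its log2 fold change against HCT116 was 1.94 (SE 0.68, adjusted p = 0.259, edgeR) with the line alone and 2.04 (SE 0.29, adjusted p = 2.0e-05) with the block. miR-411-5p, from the second hairpin, went the other way in replicate 3. It was at 8.14, 12.1 and 1.34 CPM in HCT116, at 17.8, 49.2 and 9.23 CPM in HCT-Oxa-c, and at 6.80, 8.93 and 1.19 CPM in HCT-FU-c. Its HCT-Oxa-c level was the highest within each replicate number, while HCT116 replicate 2 exceeded HCT-Oxa-c replicate 3. Against HCT116 the log2 fold change was 1.75 in both models, with SE 0.83 and adjusted p = 0.520 for the line alone and SE 0.47 and adjusted p = 0.014 with the block (edgeR). The call with the block was lost without HCT116 replicate 2 (adjusted p = 0.143) or HCT-Oxa-c replicate 2 (0.240).

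miR-889-3p had the steadiest values of the abundant members. It was at 12.2, 10.7 and 20.0 CPM in HCT116, at 42.5, 51.9 and 62.6 CPM in HCT-Oxa-c, and at 9.07, 8.93 and 10.7 CPM in HCT-FU-c. The HCT-Oxa-c libraries were well apart from the other 6. The log2 fold change against HCT116 was 1.89 (SE 0.33, adjusted p = 0.0173, edgeR) with the line alone and 1.90 (SE 0.33, adjusted p = 1.9e-04) with the block. miR-409-3p was at 6.11, 14.3 and 14.7 CPM in HCT116, at 49.3, 32.6 and 78.0 CPM in HCT-Oxa-c, and at 10.6, 6.83 and 20.2 CPM in HCT-FU-c. Its groups did not overlap either. Its log2 fold change was 2.19 (SE 0.53, adjusted p = 0.0718, edgeR) with the line alone and 2.11 (SE 0.38, adjusted p = 2.9e-04) with the block.

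miR-487b-3p lies about midway along the cluster, in an intron of MIR381HG. It was at 3.39, 5.71 and 2.67 CPM in HCT116, at 19.9, 33.1 and 48.2 CPM in HCT-Oxa-c, and at 3.02, 6.30 and 9.53 CPM in HCT-FU-c. No HCT-Oxa-c library overlapped with the other lines, although the HCT116 values rest on 5, 8 and 2 counts. The log2 fold change against HCT116 was 3.02 (SE 0.55, adjusted p = 0.0190, edgeR) with the line alone and 2.89 (SE 0.48, adjusted p = 1.3e-04) with the block. The calls of miR-487b-3p and miR-889-3p with the line alone were lost when HCT116 replicate 1 (adjusted p = 0.136 and 0.128), HCT116 replicate 2 (0.0584 and 0.0723), HCT-Oxa-c replicate 2 (0.0761 for both) or HCT-Oxa-c replicate 3 (0.0682 for both) was left out. With the block, both were called whichever of the 9 libraries was left out (highest adjusted p = 0.00909).

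The miR-376 members derive from neighbouring hairpins and are known for A-to-I editing in the brain. miR-376a-3p was at 2.04, 0 and 4.01 CPM in HCT116, at 14.2, 12.1 and 29.7 CPM in HCT-Oxa-c, and at 3.78, 1.58 and 5.95 CPM in HCT-FU-c. It had the largest log2 fold change of the tested members against HCT116, 3.31 (SE 0.91, adjusted p = 0.109, edgeR) with the line alone and 3.32 (SE 0.67, adjusted p = 0.0012) with the block, over 3, 0 and 3 counts in HCT116. miR-376c-3p was at 4.75, 2.14 and 0 CPM in HCT116, at 11.0, 12.1 and 15.4 CPM in HCT-Oxa-c, and at 2.27, 3.15 and 2.38 CPM in HCT-FU-c. Both had all HCT-Oxa-c libraries above the rest. The log2 fold change of miR-376c-3p was 2.27 (SE 0.73) with the line alone and 2.23 (SE 0.68) with the block, and only the latter was called (edgeR adjusted p = 0.207 and 0.0291). With 1 library removed at a time, that call held in 4 of 9 models and was lost without HCT116 replicate 2 or 3 or any of the HCT-Oxa-c libraries (adjusted p from 0.0915 to 0.176). miR-376b-3p, which shares the seed of miR-376a-3p, had 4 counts in HCT-Oxa-c, 1 count in HCT116 and 0 counts in HCT-FU-c, and was not tested.

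Both arms of MIR382 were tested. miR-382-3p was at 2.04, 2.14 and 5.34 CPM in HCT116, at 14.2, 8.94 and 42.1 CPM in HCT-Oxa-c, and at 2.27, 1.05 and 10.7 CPM in HCT-FU-c. miR-382-5p was at 0.679, 1.43 and 9.35 CPM in HCT116, at 9.43, 12.1 and 18.5 CPM in HCT-Oxa-c, and at 2.27, 0.525 and 5.95 CPM in HCT-FU-c. Both arms were above all HCT116 libraries in all HCT-Oxa-c libraries, the 5p arm by a margin of less than 1 CPM over HCT116 replicate 3. Their log2 fold changes were 2.81 (SE 0.95) and 1.98 (SE 0.98) with the line alone, neither called, and 2.63 (SE 0.58) and 2.23 (SE 0.68) with the block, both called (edgeR adjusted p = 0.0025 and 0.0291). The call of the 3p arm held whichever library was left out (highest adjusted p = 0.0431). That of the 5p arm held in 5 of 9 such models and was lost without replicate 1 or 2 of either HCT116 or HCT-Oxa-c (adjusted p from 0.153 to 0.259).

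Members from the MEG8 introns followed the same order. miR-323a-3p was at 3.39, 3.57 and 1.34 CPM in HCT116, at 19.4, 14.8 and 26.7 CPM in HCT-Oxa-c, and at 10.6, 2.10 and 4.76 CPM in HCT-FU-c. Its log2 fold change against HCT116 was 2.74 (SE 0.66, adjusted p = 0.0718, edgeR) with the line alone and 2.69 (SE 0.60, adjusted p = 0.0028) with the block. Its near-identical partner miR-323b-3p had 0 counts in all HCT116 libraries and 7, 8 and 18 in HCT-Oxa-c. Its level over the pooled HCT-Oxa-c libraries was 7.78-fold a floor of 3 counts over the pooled HCT116 libraries. This ratio allows for counting error in HCT116 only, not for the spread between libraries, and miR-323b-3p was not tested.

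miR-494-3p was at 4.75, 2.86 and 0 CPM in HCT116, at 21.0, 17.0 and 13.3 CPM in HCT-Oxa-c, and at 0, 3.15 and 2.38 CPM in HCT-FU-c. miR-543 was at 3.39, 6.43 and 9.35 CPM in HCT116, at 18.3, 20.6 and 20.5 CPM in HCT-Oxa-c, and at 3.78, 2.63 and 2.38 CPM in HCT-FU-c. miR-329-3p was at 8.14, 5.71 and 2.67 CPM in HCT116, at 18.3, 27.7 and 10.3 CPM in HCT-Oxa-c, and at 6.04, 5.78 and 2.38 CPM in HCT-FU-c. In none of these 3 members did an HCT-Oxa-c library overlap with another line. Their log2 fold changes against HCT116 with the line alone were 2.57 (SE 0.88), 1.67 (SE 0.46) and 1.72 (SE 0.57), none of them called. With the block they were 2.58, 1.72 and 1.74, and all 3 were called (edgeR adjusted p = 0.012, 0.0241 and 0.022). These calls did not hold in every model that left out 1 library. That of miR-494-3p held in 6 of 9 and was lost without HCT116 replicate 2 or 3 or HCT-Oxa-c replicate 1 (highest adjusted p = 0.184). That of miR-543 held in 5 and was lost without replicate 1 or 2 of either line (highest 0.228). That of miR-329-3p held in 5 and was lost without any of the HCT116 libraries or HCT-Oxa-c replicate 2 (highest 0.240).

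The remaining tested members did not pass the test in this comparison. miR-654-3p was at 1.36, 4.28 and 10.7 CPM in HCT116, at 11.0, 18.8 and 18.5 CPM in HCT-Oxa-c, and at 4.53, 4.20 and 1.19 CPM in HCT-FU-c. With the block its log2 fold change was 1.76 (SE 0.60, adjusted p = 0.0526, edgeR). miR-154-3p was at 2.71, 0.714 and 4.01 CPM in HCT116 and at 12.1, 15.2 and 3.08 CPM in HCT-Oxa-c, with overlap at replicate 3 (log2 fold change 2.23, SE 0.81, adjusted p = 0.0684 with the block). miR-485-3p was the tested member that differed least, at 2.71, 5.71 and 9.35 CPM in HCT116 and 5.24, 8.49 and 8.21 CPM in HCT-Oxa-c. Its log2 fold change was 0.36 (SE 0.66) with the line alone and 0.42 (SE 0.64) with the block.

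**Figure D2:**
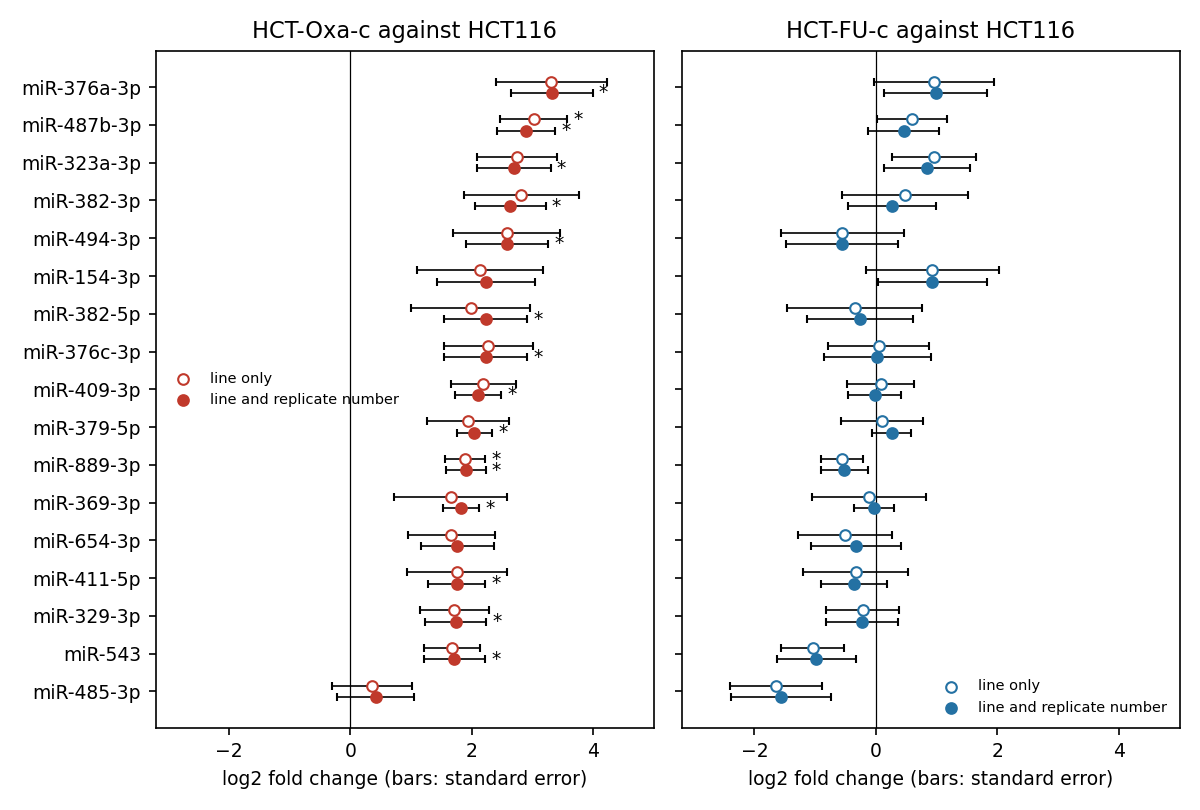
Log2 fold change of the 17 tested members in HCT-Oxa-c (left) and HCT-FU-c (right) against HCT116, with open points for the model of the line alone, filled points for the model with the replicate block, bars for the standard error and asterisks for adjusted p below 0.05. All 17 lie to the right of 0 on the left, where 12 of them passed the filter only through HCT-Oxa-c, and they lie on both sides of 0 on the right, with no asterisk.

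The 43 members that the filter removed took 75 counts over the HCT116 libraries, against 498 for HCT-Oxa-c and 107 for HCT-FU-c. Their summed level was 22.1 ± 6.66 CPM in HCT116 and 97.9 ± 6.38 CPM in HCT-Oxa-c, a ratio of 4.43, and 27.4 ± 5.15 CPM in HCT-FU-c, a ratio of 1.24. The most frequent was miR-381-3p, the namesake of MIR381HG, with 3, 8 and 0 counts in HCT116, 31, 35 and 4 in HCT-Oxa-c, and 3, 10 and 2 in HCT-FU-c. miR-134-5p, known from the control of dendritic spines in neurons through Limk1, had 0, 0 and 1 counts in HCT116, 9, 6 and 19 in HCT-Oxa-c, and 1, 2 and 1 in HCT-FU-c. miR-495-3p had 2, 0 and 1 counts in HCT116, 12, 19 and 17 in HCT-Oxa-c, and 0, 2 and 5 in HCT-FU-c. For miR-134-5p and miR-495-3p, every HCT-Oxa-c library was above every other library in CPM, while for miR-381-3p replicate 3 of HCT-Oxa-c fell among the others. miR-655-3p had 3, 5 and 0 counts in HCT116, 16, 19 and 3 in HCT-Oxa-c, and 8, 5 and 0 in HCT-FU-c. Its HCT-Oxa-c replicate 3 also fell among the other lines in CPM. Reads in HCT-Oxa-c alone were found for 9 members, none with more than 6 counts in all. In the other direction, miR-376a-2-5p had 5 counts, all in HCT116 replicate 3.

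The arm with more reads was the same in all 3 lines for the most abundant hairpins, MIR379 and MIR369. Of 16 hairpins with both arms listed, the 3p arm had more counts in HCT-Oxa-c in 13 and the 5p arm in 3, MIR379, MIR411 and MIR493. Some of these rest on too few counts to tell the arms apart. MIR299 and MIR541 had 1 count from the 5p and 2 from the 3p arm in HCT-Oxa-c, and MIR493 had 3 and 0. MIR379 gave 67 counts from its 5p arm and 3 from its 3p arm in HCT116, 377 and 11 in HCT-Oxa-c, and 88 and 2 in HCT-FU-c. MIR369 gave 2 from the 5p and 88 from the 3p arm in HCT116, 8 and 400 in HCT-Oxa-c, and 1 and 92 in HCT-FU-c. MIR382 was the most even, with 10 and 10 counts in HCT116, 63 and 88 in HCT-Oxa-c, and 9 and 14 in HCT-FU-c, for the 5p and the 3p arm.

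For HCT-FU-c against HCT116, edgeR called 0 of the 17 tested members in either model, and 0 had an unadjusted p below 0.05. Of all 367 miRNAs, 15 had such a p with the line alone and 65 with the block. DESeq2 also called 0 members, where 0.272% of all tested miRNAs were called higher without the block and 1.63% with it. With replicates 1 and 2 only, 0 of 18 members were called (1.05% of all tested called higher). Without a filter 0 of 60 were called with the line alone (0% of all called higher) or with the block (0.167%). The shares called lower were not counted for these fits or for DESeq2. Over all 367 miRNAs 0% were called with the line alone, and with the block 1.63% were called higher and 3.81% lower. With the line alone, the log2 fold changes of the members ranged from -1.64 (miR-485-3p, SE 0.76) to 0.96 (miR-376a-3p, SE 0.99), 8 above and 9 below 0. The 5 members that passed the filter without HCT-Oxa-c lay between -0.52 and 0.26 with the block, where their standard errors were 0.32 for miR-379-5p, 0.33 for miR-369-3p, 0.39 for miR-889-3p, 0.43 for miR-409-3p and 0.55 for miR-411-5p. A call needs a change of several standard errors, so changes well above these errors could also be missed at this depth.

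The sublines were also compared directly, which sets the difference between them on its own test. HCT-Oxa-c exceeded HCT-FU-c in 3 of the 17 members with the line alone, miR-487b-3p, miR-543 and miR-889-3p, where 3.54% of all tested miRNAs were called higher and 0.817% lower. With the block 15 members were called, all higher, with 14.7% of all tested miRNAs higher and 11.7% lower. Leaving out HCT-Oxa-c replicate 2 reduced the 15 to 8, and leaving out HCT-FU-c replicate 2 reduced them to 9. The share over all tested miRNAs was not counted for these 2 fits. In the model with the block, the erythrocyte miRNA miR-451a was also called higher (log2 difference 1.63, SE 0.44, adjusted p = 0.0090, edgeR). It had 1, 2 and 246 counts in HCT-Oxa-c against 0, 0 and 70 in HCT-FU-c, and its part in the result was not tested. Without a filter 8 of 60 were called with the line alone (1.67% of all 1198 higher) and 18 with the block (4.34%). DESeq2 called 11 of 17 with the line alone (8.45% of all tested higher) and 15 with the block (15.8% higher). Replicates 1 and 2 alone gave 15 of 18 (10.8% higher). miR-889-3p had a log2 difference of 2.45 (SE 0.34, adjusted p = 0.0044, edgeR) with the line alone, and it was called in all 18 models in which it was tested. miR-543 had its lowest mean in HCT-FU-c, 2.93 ± 0.745 CPM, and its log2 difference was 2.71 (SE 0.49, adjusted p = 0.0157, edgeR). Its call was lost without HCT-Oxa-c replicate 2 (adjusted p = 0.0644), HCT-FU-c replicate 1 (0.0553) or HCT-FU-c replicate 2 (0.103). That of miR-487b-3p was lost without HCT116 replicate 1 (0.0567), HCT-Oxa-c replicate 2 (0.0880) or 3 (0.0964), or HCT-FU-c replicate 1 (0.142) or 2 (0.155), and with only the 6 libraries compared (0.0511). The comparison shares its HCT-Oxa-c libraries with that against HCT116.

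Replicate 3 differed in much of the table, and this was not particular to the members. In the model with the block, replicate 3 was compared with the mean of replicates 1 and 2. Of all tested miRNAs, 51.2% passed the threshold in either direction, a share not split by direction. Of the 17 tested members, 6 passed it as higher in replicate 3 and 1 as lower. The higher ones included miR-369-3p (log2 difference 2.12, SE 0.25), miR-382-3p (1.98, SE 0.48), miR-382-5p (1.61, SE 0.60) and miR-379-5p (1.49, SE 0.24). The lower one was miR-411-5p (-2.04, SE 0.53), from the hairpin next to that of miR-379-5p. HCT-Oxa-c was the highest line within each replicate number for these members. The erythrocyte and liver miRNAs named above moved with the same libraries, and their part in the shift was not tested.

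Other imprinted miRNAs were not called higher in HCT-Oxa-c. Of 8 listed miRNAs from other imprinted loci (those of IGF2, H19, MEST and the GNAS region), 3 were tested, and none was called in HCT-Oxa-c against HCT116 with the line alone. With the block miR-335-5p, from an intron of MEST, was called lower (log2 fold change -0.73, SE 0.18, adjusted p = 0.0069, edgeR). miR-335-3p had a log2 fold change of -0.30 (SE 0.16) and miR-483-3p, from an IGF2 intron, of -0.68 (SE 0.57), neither called. The primate-specific imprinted cluster on chromosome 19 had 1 listed row, with 1 count in all. miR-1247-5p, whose hairpin lies next to DIO3 and outside the list of numbers, was between 17.4 and 75.0 CPM over the HCT116 libraries and between 39.0 and 53.6 CPM over the HCT-Oxa-c libraries. Its log2 fold change was -0.29 (SE 0.48) with the line alone and -0.24 (SE 0.30) with the block, and it was not called in any of the 3 comparisons.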

How the data were processed

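Small RNA was measured in 9 libraries of 3 cell lines (NEXTflex kit, MiSeq). The deposited table gives a read count per mature miRNA and library as the authors made it. Beside it the authors deposited a signal per miRNA, the same counts divided by a factor per library (per the file headers a DESeq2 size factor), which was not used here. The submitters' processing notes name CASAVA 1.8, Bowtie 1.1.2, DESeq2 and GRCh38.p7, and how reads with several matches were counted is not given in the sources used here. Groups and replicate numbers were taken from the labels. The list of members, the gene lists and the tests were chosen with earlier results of these data known.

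Counts were analysed in R 4.3.3 with edgeR 4.0.16 (TMM factors, filterByExpr set to min.count 10 and min.total.count 15, glmQLFit and glmQLFTest over all 9 libraries, prior count 0.125). The standard error was taken as the size of the log2 fold change divided by the root of F. The model with the replicate number as a block stood beside it. Over the 367 tested miRNAs, deviations from the line means correlated between 0.411 and 0.764 for same-numbered libraries. That was above the minimum of 0.1 set for treating numbers as pairs. However, replicate 1 of a line and replicate 2 of another also correlated, between 0.417 and 0.614, about as much as same-numbered libraries 1 and 2. Labels do not say what a number marks. Replicates of a line differed by more than counting noise (chi-square per degree of freedom 9.71 or more). Nothing in the labels says whether they came from separate cultures, so p-values measure the spread between these libraries only. DESeq2 1.42.0, other scalings, filters and left-out libraries were alternatives. Values were given in full for every member called in any comparison in either model and for the 8 tested members of highest mean CPM, other members being named after their values were seen.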

Additional observations from a re-analysis of the deposited data

Results flagged for a closer look

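The change from HCT116 differed between the sublines, by a test of the difference itself, for 3 members. The log2 difference of HCT-Oxa-c minus HCT-FU-c was 2.44 for miR-487b-3p, 2.71 for miR-543 and 2.45 for miR-889-3p (edgeR, line alone, adjusted p = 0.0363, 0.0157 and 0.0044). In each of the 3, all HCT-Oxa-c libraries lay above all HCT-FU-c libraries. The call of miR-487b-3p was lost when HCT116 replicate 1, HCT-Oxa-c replicate 2 or 3, or HCT-FU-c replicate 1 or 2 was left out (highest adjusted p = 0.155) and with only the 6 libraries compared. That of miR-543 was lost without HCT-Oxa-c replicate 2 or HCT-FU-c replicate 1 or 2 (highest 0.103). Both passed the filter on low counts only through the HCT-Oxa-c libraries, and miR-889-3p did not need them.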

How the results depend on the processing

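With the replicate number as a block, the members called rose from 2 to 14 in HCT-Oxa-c against HCT116 and from 3 to 15 in HCT-Oxa-c against HCT-FU-c, and DESeq2 with the block also gave 14 and 15. The counts were 9 and 8 without a filter on low counts, 9 and 11 with DESeq2, 16 and 15 with replicates 1 and 2 only, and 0 and 0 when at least 10 counts were required in every library, which left few members to test. Leaving out each library in turn gave 0 to 3 and 1 to 5 calls with the line alone, and 8 to 18 and 8 to 17 with the block, the models with both being added after the data were seen. The number of members tested varied between these fits. The share over all tested miRNAs was not counted for them, nor for the fit that required at least 10 counts. For the other fits it is given with each comparison above. The summed level of all members ranged from 513 to 697 CPM in HCT-Oxa-c and from 114 to 180 CPM in HCT116 over the other scalings and left-out libraries.

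In HCT-FU-c against HCT116 no member was called, and small log2 fold changes changed sign. miR-369-3p was at 0.0017 with total counts, 0.13 with replicates 1 and 2 only, and with the block 0.12 with total counts, 0.020 without a filter and 0.13 with replicates 1 and 2 only. miR-376c-3p was at -0.034 with RLE factors, -0.056 with DESeq2 and -0.37 with replicates 1 and 2 only, and with the block at -0.052 with RLE factors and -0.36 with replicates 1 and 2 only. miR-409-3p was at -0.024 with the block, -0.071 with DESeq2 and the block, -0.075 with RLE factors and the block, and -0.30 and -0.31 with replicates 1 and 2 only, without and with the block. In the same order, replicates 1 and 2 only gave -0.45 and -0.42 for miR-382-3p, 0.21 and 0.20 for miR-382-5p, and 0.58 and 0.57 for miR-654-3p. With replicates 1 and 2 only and the block, miR-487b-3p was at -0.016. Leaving out each library, in both models, gave -0.62 to 0.15 for miR-329-3p, -1.13 to 1.20 for miR-369-3p, -0.41 to 1.04 for miR-376c-3p, -0.38 to 1.09 for miR-379-5p, -0.88 to 1.06 for miR-382-3p, -1.30 to 1.20 for miR-382-5p, -0.44 to 0.51 for miR-409-3p, -0.82 to 0.13 for miR-411-5p, -1.47 to 0.26 for miR-494-3p and -1.03 to 0.39 for miR-654-3p. The cause was not tested. In the comparisons that involve HCT-Oxa-c, no member given in full changed sign under any alternative. With the line alone, leaving out 1 library moved the log2 fold change of HCT-Oxa-c against HCT116 between 0.82 (without HCT-Oxa-c replicate 3) and 2.95 (without HCT116 replicate 3) for miR-369-3p, and between 1.42 and 2.90 without the same libraries for miR-379-5p. It moved between 0.88 (without HCT-Oxa-c replicate 2) and 2.37 (without HCT116 replicate 2) for miR-411-5p, and between 1.43 (without HCT116 replicate 1) and 3.52 (without HCT116 replicate 3) for miR-382-5p. Depth limits the 43 untested members and the upstream group, whose counts lie near the floor.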
